A study of Mus musculus with 3 samples.

Results

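The genes described here encode 8 potassium channel subunits, chosen by symbol: the inward rectifiers Kcnj3, Kcnj6, Kcnj9, Kcnj10 and Kcnj16 and the two-pore channels Kcnk1, Kcnk2 and Kcnk10. All 8 symbols were found among the 30559 genes of the count tables. Their transcripts were counted in single nuclei of mouse neurospheres, which are floating clusters of neural stem cells grown from the subventricular zone of newborn pups and then differentiated to 15 days in vitro. The series holds 3 libraries, labelled control, CBPf/f and p300f/f, with 1 library per condition and about 15 cultures pooled into each.

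In the methods, cells of Crebbp f/f or Ep300 f/f pups of the C57BL/6 background received a lentivirus carrying Cre and mCherry, which removes the floxed gene, and control cells received a lentivirus carrying RFP. Nuclei were sorted for the red fluorescence before 10x 3′ library preparation. The labels name tamoxifen as the treatment instead, and neither source states from which floxed line the control culture came. CBP (Crebbp) and p300 (Ep300) are related acetyltransferases that act as transcriptional coactivators. The libraries are called control, CBP-ablated and p300-ablated below. They held 4884, 3017 and 4648 nuclei with 16312170, 12748336 and 18876682 UMIs (unique molecular identifiers, each standing for 1 captured transcript). Median depths were 3219, 4016 and 3902.5 UMIs per nucleus, and each pair of libraries shared between 1 and 7 cell barcodes. Summed over exons and introns, Crebbp had 5461 UMIs in the control library and 4711 in the CBP-ablated library, a log2 ratio of 0.14 after scaling each library to 1000000 UMIs (CPM, the unit of all levels below). Ep300 had 1856 UMIs in the control library and 2177 in the p300-ablated library, a log2 ratio of 0.02. These sums take in transcript outside the floxed exons, so they do not check the labels. The paper reports that it checked the removal of CBP and p300 in such cultures. Its supplementary images show staining for CBP, which was absent from Crebbp f/f neurospheres given Cre. One cluster of 1279 astrocyte-like nuclei lay wholly in the control library, and the channel genes' whole-library ratios against control are therefore given with and without it, except for Kcnj9, which had too few UMIs. With 1 library per condition no test between conditions was possible, and all intervals are 95% intervals that cover counting error only. Those of levels and ratios take each UMI as independent, although 1 nucleus can hold several. The 502 Kcnj6 UMIs of the control library, for example, lay in 239 nuclei. The sampling of nuclei is thus not covered by them.

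Inward rectifiers pass potassium more easily into the cell than out of it and hold the membrane near its resting potential. Kcnj3, Kcnj6 and Kcnj9 encode GIRK subunits, which are opened by the beta-gamma part of G proteins when receptors such as the GABA-B receptor are active and which slow the firing of neurons. Kcnj10 encodes Kir4.1, the main glial inward rectifier, which carries potassium away from active neurons, and its partner Kcnj16 encodes Kir5.1. Two-pore channels carry the background leak current. Kcnk1 encodes TWIK-1, and Kcnk2 and Kcnk10 encode TREK-1 and TREK-2, leak channels that respond to stretch, heat and lipids.

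In the GRCm38 build, Kcnj9 (chr1:172320501-172329318, minus strand) and Kcnj10 (chr1:172341210-172374085, plus strand) are neighbours, 11891 bases apart. Kcnj16 (chr11:110968033-111027968, plus strand) lies 38196 bases from Kcnj2, another inward rectifier. Kcnj6 (chr16:94748636-94997701, minus strand) spans 249066 bases, of which 3.06% are exon, whereas exons make up 48.6% of the 8818 bases of Kcnj9. Kcnj3 lies at chr2:55435970-55598145, Kcnk1 at chr8:125995170-126030685, Kcnk2 at chr1:189207930-189402273 and Kcnk10 at chr12:98429437-98578310. Since reads of introns were counted, longer genes offer more sequence to count, and levels are compared between genes only per kilobase of gene span. An antisense gene on the opposite strand overlaps Kcnj6 (Gm41505), Kcnj9 (Gm36937), Kcnk1 (Gm45875), Kcnk2 (A430027H14Rik) and Kcnk10 (Gm40893), and the sources used here do not say how the counting treated strand.

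The 250 bases before the outermost start site are shown for Kcnj6 and Kcnj16, which had the lowest ratios between the CBP-ablated and control libraries, and for Kcnj10, whose ratio was near 0. The sequences are from RefSeq (GRCm38.p6), which had entries for all 8 genes, and are written 5′ to 3′ on the strand of the gene. Capitals mark TTGGC, part of the site of nuclear factor I, and CAGCTG, an E-box of proneural factors, on either strand.
Kcnj6, chr16:94997697-94997946, minus strand: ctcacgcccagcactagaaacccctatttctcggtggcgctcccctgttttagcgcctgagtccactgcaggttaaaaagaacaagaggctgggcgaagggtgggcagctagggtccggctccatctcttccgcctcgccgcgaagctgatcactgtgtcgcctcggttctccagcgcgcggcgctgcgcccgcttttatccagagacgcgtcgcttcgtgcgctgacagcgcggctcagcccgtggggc
Kcnj16, chr11:110967783-110968032, plus strand: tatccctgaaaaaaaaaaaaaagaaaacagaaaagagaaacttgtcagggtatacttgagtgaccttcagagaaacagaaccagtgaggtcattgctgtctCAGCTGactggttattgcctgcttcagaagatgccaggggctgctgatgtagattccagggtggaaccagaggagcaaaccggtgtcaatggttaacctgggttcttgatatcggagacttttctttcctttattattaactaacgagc
Kcnj10, chr1:172340960-172341209, plus strand: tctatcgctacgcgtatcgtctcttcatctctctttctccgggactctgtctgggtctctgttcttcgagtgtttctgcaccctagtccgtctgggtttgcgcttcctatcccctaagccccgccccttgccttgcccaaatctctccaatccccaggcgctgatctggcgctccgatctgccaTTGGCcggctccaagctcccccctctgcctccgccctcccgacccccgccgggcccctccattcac

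The Kcnj16 window was AT-rich, with 42.8% G and C, whereas the Kcnj6 window held 64.0% and the Kcnj10 window 62.0%. CBP takes its name from CREB, which binds the cyclic AMP response element TGACGTCA. Neither TGACGTCA nor its first part TGACG occurred on either strand of the outermost window of any of the 8 genes. Among 32851 RefSeq windows of the same length, 1.55% held TGACGTCA and 17.8% held TGACG. The nuclear factor I letters occurred in 4 of the 8 outermost windows against 41.5% of all windows, and the E-box in 2 of 8 against 13.0%. ACAAAG, a SOX motif, occurred in none of the 8, against 16.5% of all windows. The background windows take in inner start sites as well. Over all 16 windows of the 8 genes, the SOX motif occurred in 2, the nuclear factor I letters in 9, the E-box in 4 and TGACG in 0. These matches describe the letters of the windows and no binding was measured.

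Per kilobase of gene span, Kcnj10 had the highest level of the 8 genes in all 3 libraries, at 2.61 CPM per kilobase for control, 2.66 for CBP-ablated and 3.19 for p300-ablated nuclei. In the control library Kcnk2 followed at 1.12, then Kcnk10 at 0.810 and Kcnk1 at 0.759. The order was the same in the CBP-ablated library, at 0.711, 0.582 and 0.481. In the p300-ablated library Kcnk10 came second at 1.25, before Kcnk1 at 0.817 and Kcnk2 at 0.780. Kcnj3 stood after these 4 genes in every library, between 0.390 and 0.403. The 3 lowest were Kcnj6, Kcnj9 and Kcnj16, between 0.0267 and 0.195. By this measure Kcnj10 was thus the highest, and Kcnj6, Kcnj9 and Kcnj16 the lowest. The order depends on the division by span. In CPM alone, the control library had Kcnk2 at 218.6 above Kcnj10 at 85.8, and Kcnj6 at 30.8 above Kcnk1 at 27.0.

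**Figure D1:**
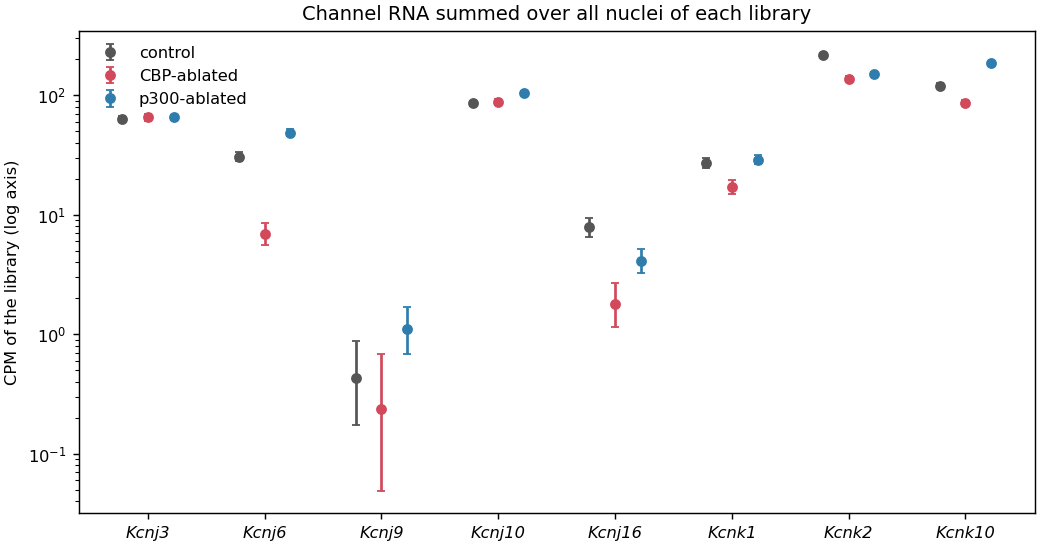
Level of each of the 8 genes in each library, as CPM of the library total on a log axis. Points are sums over all nuclei of a library, bars are 95% Poisson intervals (counting error only), and colours mark the 3 libraries. Kcnj6 and Kcnj16 are lowest in the CBP-ablated library, whereas the intervals of Kcnj3 overlap in all 3 libraries.

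Kcnj6, which encodes GIRK2, had 502, 88 and 918 UMIs in the control, CBP-ablated and p300-ablated libraries, or 30.8, 6.90 and 48.6 CPM. The CBP-ablated library was thus 4.46-fold below the control, a log2 ratio of -2.16 (-2.50 to -1.83), and 7.05-fold below the p300-ablated library, at -2.82 (-3.15 to -2.50). Kcnj16 had 128, 23 and 78 UMIs, or 7.85, 1.80 and 4.13 CPM. Both ablated libraries were below control for Kcnj16, with log2 ratios of -2.12 (-2.83 to -1.47) for CBP and -0.93 (-1.35 to -0.51) for p300. In these whole-library sums, fewer cells of a type and less RNA per cell cannot be told apart.

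Kcnk10 stood in the order p300-ablated, control, CBP-ablated, with 186, 121 and 86.6 CPM from 3507, 1967 and 1104 UMIs. Kcnk2 was highest in the control library, at 218.6 CPM against 138 and 152 in the CBP- and p300-ablated libraries. Kcnk1 had 27.0, 17.1 and 29.0 CPM in the control, CBP-ablated and p300-ablated libraries. Kcnk1 and Kcnk2 were therefore both below control in the CBP-ablated library, each with a log2 ratio of -0.66, less than 2-fold.

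Kcnj3, which encodes GIRK1, was nearly level across the libraries at 63.3, 65.3 and 65.3 CPM, with a log2 ratio of 0.05 (-0.09 to 0.18) for CBP against control and 0.04 (-0.08 to 0.17) for p300 against control. Kcnj10 was likewise near control in the CBP-ablated library, at 87.5 against 85.8 CPM and a log2 ratio of 0.03 (-0.09 to 0.14). In the p300-ablated library Kcnj10 was at 105 CPM, a log2 ratio of 0.29 (0.19 to 0.39). Kcnj9, which encodes GIRK3, had 7, 3 and 21 UMIs in the control, CBP-ablated and p300-ablated libraries. That was too few for a ratio here, which asked for 100 UMIs in both libraries together.

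Of the 7 genes with enough UMIs, 2 (Kcnj6 and Kcnj16) were more than 2-fold lower and 0 more than 2-fold higher in the CBP-ablated than in the control library. Among all 11883 genes with enough UMIs, 3.99% were more than 2-fold lower and 2.89% more than 2-fold higher in that comparison. Between the p300-ablated and control libraries, 0 of the 7 genes passed 2-fold in either direction, where 2.12% of 12247 genes were lower and 0.694% higher. Between the CBP-ablated and p300-ablated libraries, 3 of 7 (Kcnj6, Kcnj16 and Kcnk10, the last at -1.10) were more than 2-fold lower and 0 higher, where 2.57% of 11956 genes were lower and 3.0% higher. The median log2 ratio of the 7 genes was -0.66, 0.11 and -0.76 in these comparisons, beside 0.06, -0.03 and 0.10 over all genes. The genes were chosen with earlier results of these data known, so these counts and medians describe the list and do not test it. The 3 comparisons are made from the same 3 libraries and are not independent. For each gene, the third log2 ratio is the first minus the second.

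**Figure D2:**
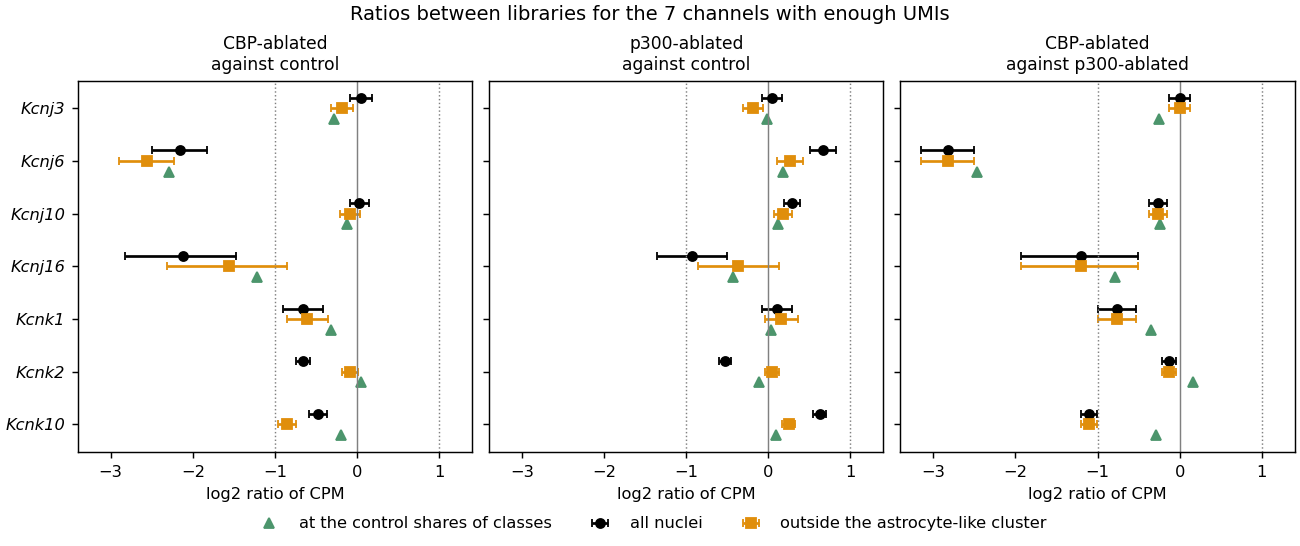
Log2 ratios of CPM for the 7 genes that reached 100 UMIs in a pair of libraries. Circles are all nuclei and squares are nuclei outside the astrocyte-like cluster, both with 95% conditional binomial intervals. Triangles are levels of the classes present in all libraries, weighted by their shares of control UMIs, and dotted lines mark 2-fold. Kcnj6 lies beyond 2-fold lower in the CBP-ablated library under all 3, whereas Kcnk2 against control moves close to 0 outside the astrocyte-like cluster. The weights do not adjust for differences in makeup within a class.

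Without the astrocyte-like nuclei, the ratio of Kcnj6 for CBP against control was -2.55 and that of Kcnj16 was -1.56 (-2.31 to -0.86). Kcnj16 then had fewer UMIs than the minimum of 100, so only Kcnj6 counted as past 2-fold. Kcnk2, in contrast, moved from -0.66 to -0.09 (-0.18 to 0.01) for CBP and from -0.53 to 0.05 (-0.04 to 0.13) for p300. The astrocyte-like cluster held 1749 of the 3566 Kcnk2 UMIs of the control library. Kcnk10 moved the other way for CBP, from -0.48 to -0.85 (-0.96 to -0.75), and for p300 the ratio was 0.25 in place of 0.62. For Kcnj6 and Kcnj16 the p300 ratios without these nuclei were 0.26 (0.10 to 0.42) and -0.37 (-0.86 to 0.13). Kcnj3, Kcnj10 and Kcnk1 had -0.18, -0.08 and -0.60 for CBP and -0.19, 0.18 and 0.16 for p300, all within 2-fold. Over all genes with enough UMIs outside that cluster, 2.13% were more than 2-fold lower for CBP against control. The 11 classes present in all libraries, thus not the astrocyte-like one, were also weighted by their shares of control UMIs. This left Kcnj6 at -2.29 and Kcnj16 at -1.21 for CBP against control, and brought Kcnk10 to -0.20. The weights do not adjust for makeup within a class, which differed between libraries in the Nell2-high class described below. How much of the Kcnj6 ratio goes with that makeup was not tested. Kcnk10 between the CBP-ablated and p300-ablated libraries went from -1.10 to -0.29 with these weights.

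Nuclei were grouped into classes by clustering in which the 8 genes took no part, so that a class was not formed by their levels. Of 13 clusters, 11 could be named from markers, in 10 classes called by the cell type they resemble. One more cluster met 2 of 7 markers of immature neurons, too few for that name, and is called Nell2-high after one of its leading genes. The leading gene of this cluster was Kcnj6 itself. The last cluster, of 70, 36 and 79 nuclei in the control, CBP-ablated and p300-ablated libraries, stayed unnamed. Class levels below are CPM of the UMIs of the nuclei of that class, and a class set against the others is a description.

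**Figure D3:**
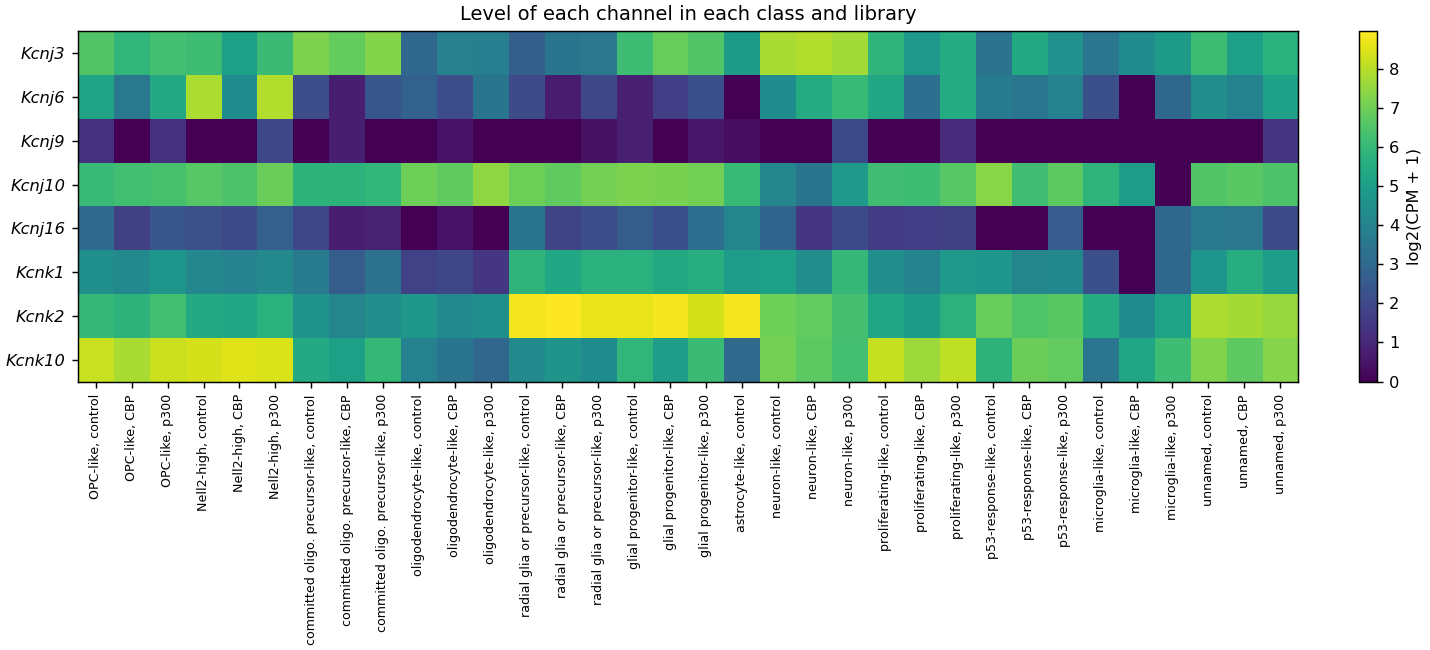
Level of each gene (rows) in each class and library (columns), as log2(CPM + 1). The colour is to be read along a row, since gene lengths differ between rows. Kcnk2 is bright in the radial glia or precursor-like, glial progenitor-like and astrocyte-like columns, Kcnk10 in the OPC-like, Nell2-high and proliferating-like columns, and Kcnj6 in the Nell2-high columns of the control and p300-ablated libraries.

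Among GIRK subunits, Kcnj6 was highest in the Nell2-high class of the control and p300-ablated libraries, at 231 (206 to 258) and 243 (222 to 264) CPM. In the Nell2-high class of the CBP-ablated library it was at 19.6 from 20 UMIs, a log2 ratio against control of -3.56 (-4.29 to -2.91). In the same class and comparison, 5.07% of 3843 genes were more than 2-fold lower. The 319 and 516 UMIs of this class made up 63.5% and 56.2% of all Kcnj6 UMIs of the control and p300-ablated libraries, but the 20 UMIs only 22.7% of those of the CBP-ablated library. Neuron-like nuclei had 19.5, 45.0 and 64.1 CPM in the control, CBP-ablated and p300-ablated libraries from 6, 27 and 21 UMIs. This was second over all libraries and first in the CBP-ablated one, but in the control library below OPC-like and proliferating-like nuclei. The log2 ratio for CBP against control in neuron-like nuclei was 1.21 (-0.10 to 2.78), an interval that held 0. That ratio turned over to -1.10 when nuclei were placed by their highest marker score. For p300 against control, the neuron-like ratio was 1.72 (0.36 to 3.32), and it also turned over with that placing. In that comparison 1 of 5 classes had an interval above 0 and 4 held 0.

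In OPC-like nuclei, which resemble oligodendrocyte precursor cells, Kcnj6 was at 36.2, 11.1 and 41.1 CPM in the control, CBP-ablated and p300-ablated libraries. In proliferating-like nuclei it was at 40.8, 8.72 and 44.8. The CBP-ablated library was lowest in both, with log2 ratios against control of -1.71 (-2.59 to -0.94) and -2.23 (-4.24 to -0.65). After every nucleus was thinned to 1500 UMIs, 19.2% of 395 control Nell2-high nuclei held a Kcnj6 UMI, 2.33% of 300 CBP-ablated and 18.2% of 522 p300-ablated ones. Before thinning these shares were 31.0%, 2.97% and 29.9%, at median depths of 3362.5, 3345 and 3993 UMIs. Microglia-like nuclei, which should lack the gene, gave 0 of 116 thinned nuclei, which allows a share of up to 2.59% by the floor of 3 counts and 3.13% by the Clopper-Pearson bound, from a median depth of 1151 UMIs before thinning. The share in the CBP-ablated Nell2-high class, 2.33% (0.943 to 4.75), had an interval that held both limits. The limits rest on only 116 nuclei, so whether that share was background could not be decided. The astrocyte-like class had 0 Kcnj6 UMIs in 1279 nuclei.

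The Nell2-high class was not made of the same nuclei in each library. At a finer resolution it fell apart into nuclei with Gpr149 and Ets1 among their leading genes and nuclei led by Kcnj6, Disp3 and Unc5d. The first kind counted 152 control, 278 CBP-ablated and 47 p300-ablated nuclei, and the second 238, 20 and 465. Kcnj6 stood at 70.1 (47.9 to 98.9) CPM in the control, 2.16 (0.261 to 7.79) in the CBP-ablated, from 2 UMIs, and 167 (109 to 244) in the p300-ablated library in the first kind. The log2 ratio for CBP against control there was -5.02 (-8.13 to -3.05). In the second kind it stood at 320.5 (284 to 360) in the control, 234 (139 to 370) in the CBP-ablated, from 18 UMIs, and 253 (231 to 276) in the p300-ablated library. The Kcnj6-led nuclei were few in the CBP-ablated library, and the ratio against control in those few, -0.45 (-1.23 to 0.23), had an interval that held 0. Kcnj6 was thus far below control in the more numerous kind of the CBP-ablated library, and not detectably so in the other. The makeup of the class and the level within it moved together with the whole-library ratio, and their separate parts were not tested.

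**Figure D4:**
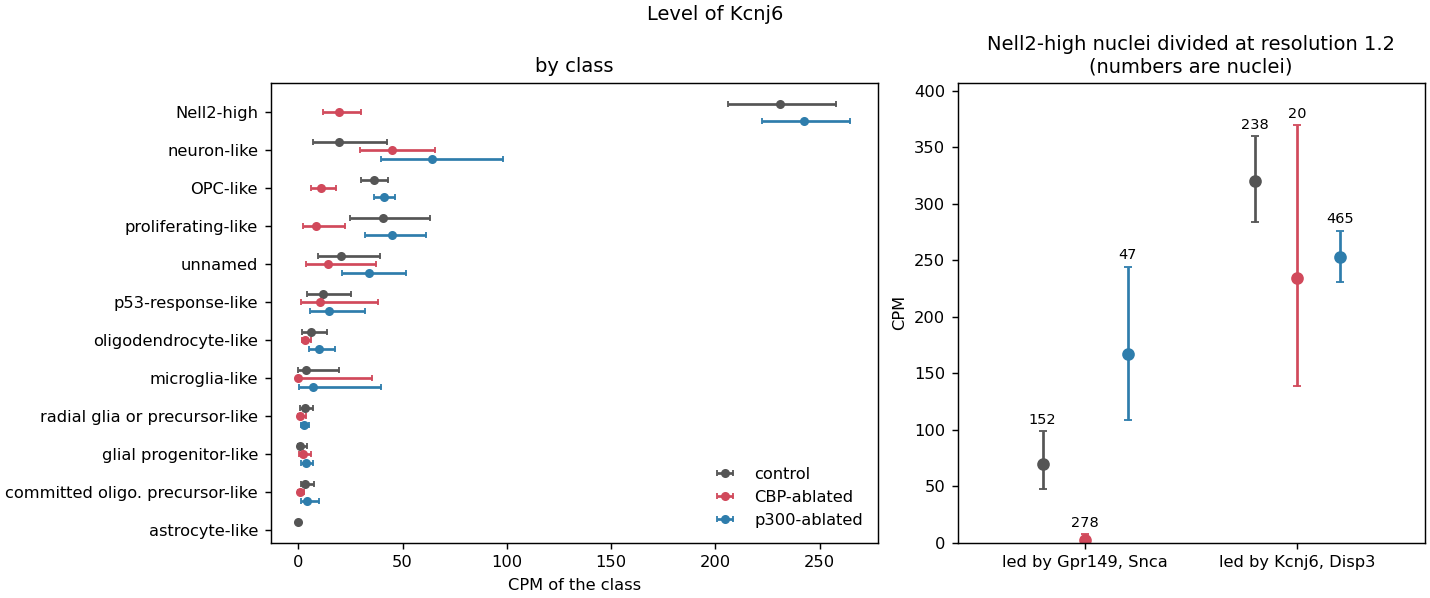
Kcnj6 in CPM, by class on the left, with classes ordered by the level over all libraries, and on the right in the 2 kinds of Nell2-high nuclei found at the finer resolution. Points are sums over nuclei of 1 library, bars are 95% Poisson intervals, colours mark the library on both sides and numbers on the right are nuclei. The CBP-ablated point of the Nell2-high class lies far below the other 2, while among the nuclei led by Kcnj6 and Disp3 it rests on 20 nuclei with a wide interval.

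Kcnj3 followed a different order from Kcnj6. It was highest in neuron-like nuclei, at 224, 245 and 210.5 CPM in the control, CBP-ablated and p300-ablated libraries, and these 3 values did not differ beyond their counting intervals. Committed oligodendrocyte precursor-like nuclei had 149.5, 114 and 155 CPM and came second over all libraries. Glial progenitor-like nuclei had 70.5, 116 and 90.7 CPM, level with the committed precursors in the CBP-ablated library within counting error, with the CBP-ablated library 0.72 (0.35 to 1.10) above control on the log2 scale. The level in radial glia or precursor-like nuclei, 9.27 over all libraries, was the lowest. In Nell2-high nuclei the CBP-ablated library was below control, at 33.2 against 71.7 CPM and a log2 ratio of -1.11 (-1.72 to -0.53). Within its 2 kinds of nuclei, however, the Kcnj3 ratios were -0.25 (-1.16 to 0.71) in the first and -0.47 (-2.13 to 0.81) in the Kcnj6-led kind, so both intervals held 0. In OPC-like nuclei the log2 ratio was -0.66 (-1.04 to -0.30). The near-level whole-library sums of Kcnj3 therefore held class ratios on both sides of 0: of 9 classes with enough UMIs, 5 had an interval below 0 and 1 above. A Kcnj3 UMI was found in 24.0% of thinned neuron-like nuclei and in 0.862% of microglia-like nuclei, at median depths of 3304 and 1151 UMIs before thinning.

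Kcnj9 had 31 UMIs in all. OPC-like nuclei held 15 of them and Nell2-high nuclei 6, all 6 in the p300-ablated library. At 3 UMIs, the CBP-ablated library was at the floor of detection set here, so no order of its classes was read.

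The glial subunits Kcnj10 and Kcnj16 differed from each other over the classes. Kcnj10 was spread widely, from 139 CPM over all libraries in glial progenitor-like nuclei to 16.2 in neuron-like nuclei. Oligodendrocyte-like nuclei, at 127, p53-response-like nuclei, named for Mdm2, Cdkn1a and other p53 targets and also at 127, and radial glia or precursor-like nuclei, at 126, had intervals that overlapped one another and that of the glial progenitor-like nuclei. Astrocyte-like nuclei, at 64.0 (56.3 to 72.4) CPM, were below all of these. Within oligodendrocyte-like nuclei the p300-ablated library was highest, at 175 CPM against 127 for control and 108 for CBP-ablated nuclei. The log2 ratio there was 0.47 (0.12 to 0.82) for p300 against control and -0.69 (-0.95 to -0.44) for CBP against p300. In p53-response-like nuclei both ablated libraries were below control, at -1.17 (-2.10 to -0.35) for CBP and -0.68 (-1.25 to -0.13) for p300. The CBP ratio there turned over at resolution 0.3 and with seed 2. Of 9 classes compared, 8 intervals held 0 for CBP against control. For p300 against control 2 lay above 0 and 6 held 0. A Kcnj10 UMI was found in 15.8% of thinned glial progenitor-like nuclei, 5.17% of microglia-like nuclei and 1.46% of neuron-like nuclei. The microglia-like share rests on 116 nuclei. Before thinning, that class held 16, 3 and 0 Kcnj10 UMIs in the control, CBP-ablated and p300-ablated libraries. Its share is thus a poor measure of background, and the lower neuron-like share is not read as above background.

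Kcnj16 was highest in astrocyte-like nuclei, at 15.8 CPM from 62 UMIs, or 48.4% of its UMIs in the control library. That cluster is of the control library alone, in which radial glia or precursor-like nuclei had 9.92 (5.67 to 16.1) and OPC-like nuclei 7.30 (4.73 to 10.8) CPM, the next 2 of the named classes. The interval of radial glia or precursor-like nuclei overlapped that of astrocyte-like nuclei, 12.1 to 20.3. Over all libraries the other named classes lay between 0.201 and 6.14 CPM, and oligodendrocyte-like nuclei, in which Kcnj10 was among the highest, had 1 Kcnj16 UMI in all. Only 2 classes had enough UMIs to compare CBP with control. OPC-like nuclei held 3 UMIs against 25, a log2 ratio of -1.72 (-4.10 to -0.01), and radial glia or precursor-like nuclei 4 against 16, a log2 ratio of -1.95 (-3.99 to -0.32). Both were below 0, on few counts. In the p300-ablated library radial glia or precursor-like nuclei were also below control, at -1.53 (-2.78 to -0.33), but the intervals of OPC-like and glial progenitor-like nuclei held 0.

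The TREK genes Kcnk2 and Kcnk10 lay in largely separate classes. Kcnk2 was at 446 (425 to 467) CPM in astrocyte-like nuclei, at 436 in radial glia or precursor-like and at 386 in glial progenitor-like nuclei over all libraries, and these 3 classes held 1749, 712 and 542 of its 3566 UMIs in the control library. In Nell2-high nuclei Kcnk2 was at 46.3 CPM, and in oligodendrocyte-like nuclei at 20.1. Kcnk10 was at 349 (332 to 366) CPM in Nell2-high, at 291 in OPC-like and at 260 in proliferating-like nuclei, where the last pair had overlapping intervals. It stood at 7.64 CPM in astrocyte-like and 20.4 in radial glia or precursor-like nuclei. Neuron-like nuclei held both, with 132 UMIs of Kcnk2 and 129 of Kcnk10.

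Within these classes Kcnk2 differed between libraries by less than 2-fold. In radial glia or precursor-like nuclei it was at 442, 497 and 404 CPM in the control, CBP-ablated and p300-ablated libraries, and in glial progenitor-like nuclei at 402, 444 and 334. The CBP-ablated library was the highest in both, by 0.17 (0.02 to 0.32) on the log2 scale over control in the first. Against the p300-ablated library it was higher by 0.30 (0.17 to 0.43) in the first and 0.41 (0.25 to 0.57) in the second. The p300-ablated library was below control in glial progenitor-like nuclei, at -0.27 (-0.43 to -0.10). Of 10 classes compared for CBP against control, 9 had an interval that held 0. A Kcnk2 UMI was found in 42.9% of thinned radial glia or precursor-like nuclei and in 5.17% of microglia-like nuclei, at median depths of 3829 and 1151 UMIs before thinning.

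**Figure D5:**
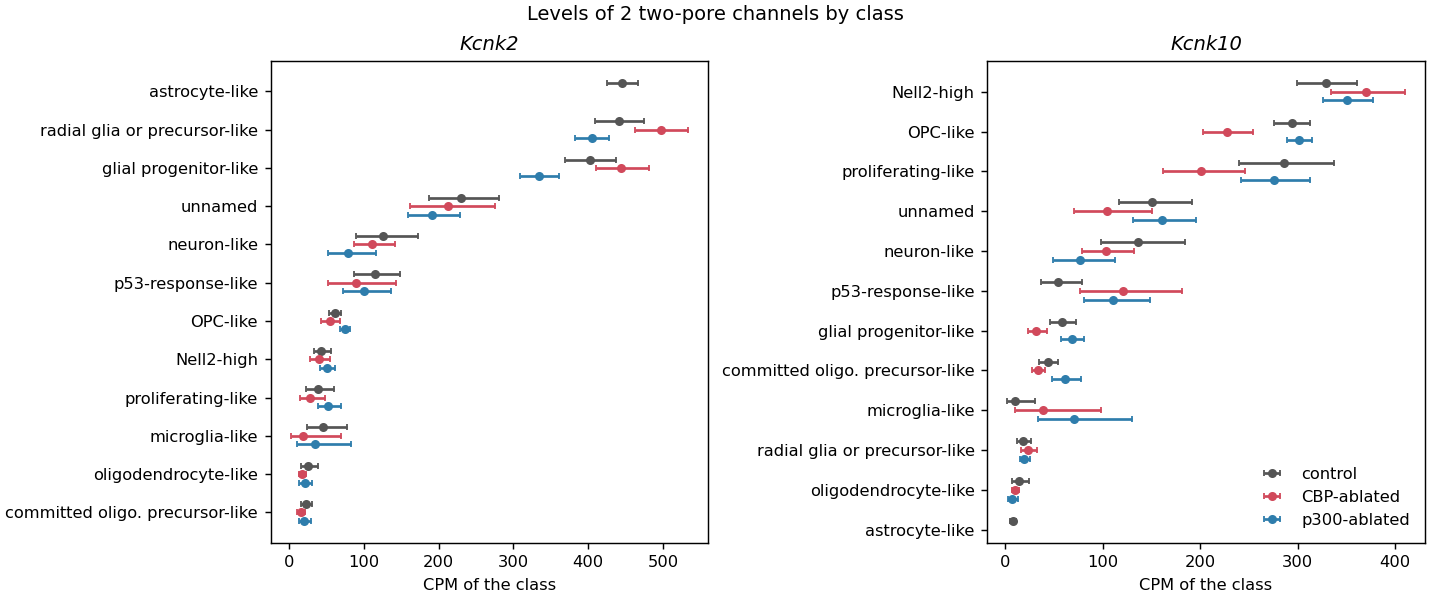
Kcnk2 (left) and Kcnk10 (right) in CPM of each class, with classes ordered by the level over all libraries. Points are sums over nuclei of 1 library, bars are 95% Poisson intervals and colours mark the libraries. The 3 classes at the top of the Kcnk2 panel are at 54.6 CPM or less over all libraries in the Kcnk10 panel.

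Kcnk10 in the Nell2-high class as a whole was similar in the libraries, at 329, 371 and 351 CPM, unlike Kcnj6. Within its kinds of nuclei, the CBP ratios were -0.18 (-0.43 to 0.08) in the first and -0.41 (-1.23 to 0.32) in the Kcnj6-led kind. Both intervals held 0. The p300 ratio was 0.10 (-0.30 to 0.50) in the first and 0.30 (0.09 to 0.52) in the Kcnj6-led kind. In OPC-like nuclei Kcnk10 was at 294, 228 and 302 CPM, with a log2 ratio of -0.37 (-0.56 to -0.18) for CBP against control. Proliferating-like nuclei had a ratio of -0.51 (-0.91 to -0.12) and glial progenitor-like nuclei of -0.89 (-1.46 to -0.34). In p53-response-like nuclei the ratio was on the other side, at 1.15 (0.286 to 1.996) from 23 against 28 UMIs. Of 10 classes compared, 3 had an interval below 0, 1 above 0 and 6 an interval that held 0. OPC-like nuclei were 21.1% of the control, 12.7% of the CBP-ablated and 37.7% of the p300-ablated library, and the whole-library levels of Kcnk10 stood in the same order. Nell2-high nuclei, with the highest Kcnk10 level, were 8.19%, 10.0% and 11.3% of these libraries. Proliferating-like nuclei were 2.35%, 3.61% and 3.85%, so neither of these classes followed that order. The part of class shares in the Kcnk10 ratios was not tested. With the classes present in all libraries held at their shares of control UMIs, the p300 ratio was 0.09 in place of 0.62. Those weights also leave out the astrocyte-like class, without which the unweighted p300 ratio was 0.25. A Kcnk10 UMI was found in 36.8% of thinned Nell2-high nuclei and in 2.59% of microglia-like nuclei.

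Kcnk1 was highest in radial glia or precursor-like nuclei, at 49.3 CPM over all libraries, and in glial progenitor-like nuclei at 47.0, with overlapping intervals. It was lowest in oligodendrocyte-like nuclei at 2.41. In radial glia or precursor-like nuclei the control library had 55.2, the CBP-ablated 39.2 and the p300-ablated 51.3 CPM, and the CBP ratio was -0.49 (-0.99 to -0.01). Of 7 classes with enough UMIs, 2 had an interval below 0 for CBP against control, and for p300 against control all 9 classes had an interval that held 0. Glial progenitor-like nuclei had 6.99% with a Kcnk1 UMI after thinning, and microglia-like nuclei 0 of 116.

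The genes whose levels ran most like each member were read over 34 combinations of class and library with at least 20 nuclei each, by Pearson's r of log2(CPM + 1). The points of a library share that library and its depth, and r is a description. Kcnk2 ran most like Slc1a3 (r = 0.93), a glutamate transporter of radial glia and astrocytes, then Slc4a4 and Gabrb1. Kcnk10 ran most like Cacng4 (r = 0.92), an AMPA receptor partner, then Rev3l and Nell2. Kcnk1 ran most like Atp2b2, a calcium pump (r = 0.91), Ntrk2 and Dpf3, and Kcnj10 most like Cttn (r = 0.87), Nsun3 and Homer3. For Kcnj6 these were Fstl5 (r = 0.83), Fam155a and Kcnmb4, for Kcnj3 Pde4d (r = 0.80), 4930545L23Rik and Plcb1, and for Kcnj16 Gm48747 (r = 0.73), Hlf and Atp2b2. Kcnj9, with few UMIs, reached 0.51 with Alk, Gm12394 and Rtl4. Among the 8 genes themselves, Kcnk1 and Kcnk2 had r = 0.79 and Kcnj6 and Kcnk10 r = 0.73, whereas Kcnj10 and Kcnj16 had -0.10 and Kcnk2 and Kcnk10 -0.10.

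Other genes that act with these channels were followed as lists, which were also chosen with earlier results of these data known. Of 21 other inward rectifier and two-pore genes, 2 had enough UMIs. Kcnk13, a two-pore channel, had 54.1 CPM in the CBP-ablated library against 25.0 for control and 21.2 for p300-ablated, with log2 ratios of 1.11 for CBP against control and 1.35 for CBP against p300. Outside the astrocyte-like cluster the first was 0.75 (0.57 to 0.93), within 2-fold. The other, Kcnj12, stayed within 2-fold.

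Of 33 voltage-gated and calcium-activated potassium channel genes, 24 had enough UMIs for CBP against control, and 5 were more than 2-fold lower and 2 more than 2-fold higher, with a median of -0.37, where 3.99% of all genes were lower and 2.89% higher. Kcnn2, a small-conductance calcium-activated channel, was at 43.5 against 150 CPM in control, a log2 ratio of -1.79 that was -0.81 outside the astrocyte-like cluster. Kcnc1, a fast delayed rectifier, had -1.35, Kcnt1, a sodium-activated channel, -1.29, and Kcnn3 -1.15, and these were -0.88, -0.50 and -0.49 outside that cluster. The fifth, Kcnma1, a large-conductance channel, went from -1.01 to -0.94. Outside the cluster none of the 5 was thus past 2-fold, while Kcnh8 was, at -1.08, and the median of the 24 was -0.49. There 2.13% of all genes were more than 2-fold lower and 1.92% higher. Kcnh1, an ether-a-go-go channel, was higher, at 16.6 against 4.72 CPM and a log2 ratio of 1.81 that was 1.57 outside the cluster, whereas Kcnb2 went from 1.02 to 0.65. For p300 against control 1 of 25 was more than 2-fold lower (Kcna2, -1.24, and -0.89 outside the cluster) and 0 higher, with a median of 0.26, where 2.12% of all genes were lower. For CBP against p300, 3 of 24 were lower, among them Kcnma1 (-1.26), and 1 higher (Kcnh1, 1.15), with a median of -0.67, where 2.57% of all genes were lower and 3.0% higher.

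Of 17 genes for receptors and G protein parts that open or regulate GIRK channels, 15 had enough UMIs in each comparison. For CBP against control 1 of the 15 was more than 2-fold lower and 0 higher, with a median of -0.02, beside 3.99% of all genes lower. This was Rgs7bp, which anchors the RGS proteins that speed the closing of GIRK channels, at 66.7 against 179.6 CPM and a log2 ratio of -1.43 (-1.54 to -1.32), which was -1.23 outside the astrocyte-like cluster. Gpr158, a receptor that binds RGS proteins, went from -0.95 to -1.13 without that cluster. For p300 against control 0 passed 2-fold, with a median of 0.03, beside 2.12% of all genes lower and 0.694% higher. For CBP against p300, 3 were lower and 0 higher, with a median of -0.19, beside 2.57% of all genes lower. These were Rgs7bp (-1.43), Gpr158 (-1.34) and Gabbr2, a subunit of the GABA-B receptor (-1.25).

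Of 12 glial partners of Kcnj10 in potassium, water and glutamate handling, 11 had enough UMIs, and for CBP against control 3 were more than 2-fold lower and 0 higher, with a median of -0.79, beside 3.99% of all genes lower. The glutamate transporter Slc1a2 was at 67.7 against 298 CPM, a log2 ratio of -2.14, which was -1.29 outside the astrocyte-like cluster. The bicarbonate transporter Slc4a4 went from -1.15 to -0.18 without that cluster and the glutamate transporter Slc1a3 from -1.05 to -0.43. Slc1a2 alone of the 11 was thus past 2-fold there, where 2.13% of all genes were lower and 1.92% higher. For p300 against control 1 was lower (Glul, glutamine synthetase, -1.33 and -0.66 outside the cluster) and 0 higher, with a median of -0.31. In that comparison 2.12% of all genes were lower and 0.694% higher. For CBP against p300, 1 was lower (Slc1a2, -1.17) and 0 higher, with a median of -0.09, beside 2.57% of all genes lower and 3.0% higher. Kcnj10 itself was at 0.03 for CBP against control. Outside the cluster the median of the partners was -0.15 and Kcnj10 was at -0.08, close to each other.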

How the data were processed

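Per the labels and the study's methods, nuclei of differentiated neurospheres were sequenced with 10x v3 chemistry in 1 library per condition. The authors used FastQC 0.11.9, Cell Ranger 3.1 and Seurat 2.3.4 with the mouse GRCm38 genome, counting exons and introns, and deposited raw UMI counts per gene and nucleus. From these counts, UMIs were summed per library and per class and divided by the total. Sums have 95% Poisson intervals, shares Clopper-Pearson intervals and ratios conditional binomial intervals. They cover counting error only. The ratios and their intervals were tested on simulated library sums in which each UMI was independent. Clustering, naming and thinning were not simulated. Ratios asked for 100 UMIs in both libraries together, or 20 within a class; the floor of detection was 3 UMIs. No p-value was computed. Other scalings (edgeR 4.0.16 TMM, DESeq2-style median of ratios), filters, weights and cluster settings were tried as alternatives. Classes came from Seurat 5.3.0 (R 4.3.3): 1617 variable genes without the 8 channel genes, 20 components, 30 neighbours, Louvain resolution 0.6, seed 1. A cluster was named where at least 60% of a list's markers, and at least 3, were in 10% or more of its nuclei and 2-fold above other nuclei. Doublets were called with Scrublet (scanpy 1.11.5) at 0.8% per 1000 nuclei, marking 191 control, 73 CBP-ablated and 173 p300-ablated nuclei, which were kept in the main values. Thinning to 1500 UMIs left out 248, 95 and 135 nuclei. Gene positions came from GENCODE M21, which held 30410 of the 30559 gene identifiers.

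The named genes were the 8 channels, up to 8 genes per comparison past 2-fold on the partner lists by size of ratio, and the 3 genes most like each channel among those with at least 500 UMIs. The channels and lists were chosen with earlier results of these data known.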

Additional observations from a re-analysis of the deposited data

Results flagged for a closer look

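Kcnj6 stood on opposite sides of control in 2 classes of the CBP-ablated library. The log2 ratio was 1.21 (-0.10 to 2.78) in neuron-like nuclei, from 27 against 6 UMIs, and -3.56 (-4.29 to -2.91) in Nell2-high nuclei. The first turned over to -1.10 when nuclei were placed by their highest marker score. Kcnk10 did so in the p300-ablated library, with 1.02 (0.31 to 1.75) in p53-response-like nuclei, from 45 against 28 UMIs, and -1.08 (-2.57 to 0.34) in oligodendrocyte-like nuclei, from 8 against 12 UMIs. The p53-response-like ratio turned over to -0.75 at resolution 0.3 and to -0.068 with seed 2. Both were picked out because a class was more than 2-fold higher and another more than 2-fold lower in the same comparison. With 1 library per condition the difference between classes was not tested, and 1 of the intervals of each pair held 0.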

How the results depend on the processing

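Over the settings tried (library scaling by TMM or median of ratios, doublets or shallow nuclei left out, thinning, equal weights for nuclei, other gene filters, no astrocyte-like cluster, control class shares), 28 of 30 counts past 2-fold and 27 of 30 medians stayed close to their values. Except under the other gene filters, the genes of the main comparison were kept in each setting. Without the astrocyte-like cluster that takes in Kcnj16, which was below 100 UMIs there. Under the minimum of 100 UMIs, the count for CBP against control there was 1 instead of 2, and the median -0.39. At control class shares, the count for CBP against p300 was 1 instead of 3 and the median -0.29, and the median for CBP against control was -0.28. Thinning gave a median of -0.39 for CBP against control. With a filter of 1 UMI in each library, the count for p300 against control was 1, as Kcnj9 entered. Of 168 ratios of single genes, 40 moved beyond their counting interval. At control class shares 16 moved and 5 stayed, and without the astrocyte-like cluster 10 moved and 11 stayed. No other setting moved more than 7, the number under thinning. A turn to the other side of 0 was counted only for ratios past 2-fold in the main setting, and 0 of those turned over. Smaller ratios did change sign, such as Kcnk2 for p300 against control, from -0.53 to 0.05 without the astrocyte-like cluster.

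Class levels and ratios depend on the classes: 142 of 1173 levels and 89 of 1380 ratios moved. Ratios past 2-fold that turned over were those of the p53-response-like class at resolution 0.3 (Kcnj10 for CBP against control 0.19, Kcnk10 for p300 against control -0.75) and with seed 2 (0.17 and -0.068). With nuclei placed by their highest marker score, Kcnj6 in neuron-like nuclei was at -1.10 for CBP and -0.28 for p300 against control, and Kcnj3 in the Nell2-high class was at 0.072 for CBP against p300. The causes were not tested. No paired analysis was possible because each condition has 1 library. Counting error is the only error measured, so differences between cultures or preparations cannot be told apart from those between conditions.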
